A study of Rattus norvegicus with 4 samples.

Results

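The genes described here copy DNA or supply its building blocks: 49 genes for the recognition and licensing of replication origins, the replication fork, deoxynucleotide synthesis and entry into S phase. A gene was taken from the array where a probe set carried its symbol and no other. This gave 63 probe sets of 45 genes, out of 31042 probe sets and 14217 named genes on the array. Cdc6, Cdc7 and Gins2 had no such probe set, and the 2 probe sets of Rrm2 also carry the symbol Rrm2l1, so no level of these 4 genes is given here. Probe sets were matched to the listed genes by symbol and not by a measured value, but the genes were listed with earlier results of these data known.

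RNA came from rat telencephalon, the front part of the embryonic forebrain, at E11.5 on a Sprague-Dawley background. The groups were Pax6 mutant embryos, homozygous rSey2/rSey2 (2 arrays), and wild-type embryos (2 arrays). Pax6 is a transcription factor of forebrain and eye progenitors. Each array stands for pooled embryos, since 13 telencephalons are given for a genotype, repeated once. A separate pool for every array is not stated, nor are litters. The p-values below therefore rest on array-to-array spread that may be technical in part.

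Dividing cells license their origins in G1. The origin recognition complex (ORC) binds DNA, and Cdc6 and Cdt1 load the ring of Mcm2 to Mcm7 onto it, while geminin (Gmnn) holds Cdt1 back once S phase has begun. Cdc7, Mcm10, Cdc45 and the GINS complex turn the ring into an active helicase, and the clamp Pcna then tethers the polymerases behind it. Many of these genes are E2F targets in mammalian cells. The early telencephalon consists largely of cycling neuroepithelial progenitors, in which this machinery is used at every division.

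Pax6 had 11.78 and 11.63 in the mutant arrays, against 11.75 and 11.85 in the wild-type arrays (log2 GCRMA value, a background-corrected and normalized probe set summary). The sources used here do not place the rSey2 lesion relative to the probe set, so this level does not check the labels. Fabp7, a lipid carrier of neural progenitors, had 4.89 and 4.56 in the mutant arrays, against 11.83 and 12.15 in the wild-type arrays. Even this difference of -7.26 (SE 0.19) had an adjusted p of 0.196 in limma. Differences as small as those described below thus had little chance of a call in this fit of 4 arrays. The 10 tested progenitor markers of the telencephalon varied widely in level. Over the 4 arrays Sox2 ranged from 13.51 to 13.86 and Lhx2 from 13.01 to 13.42. Lower levels were found for Hes5 (8.37 to 8.69), Sox1 (6.65 to 7.45) and Six3 (5.07 to 5.30). Sox2 and Lhx2 were higher in both mutant arrays, at differences of 0.22 and 0.30. Of the 10 markers, 8 had a positive and 2 a negative difference. Of 18625 probe sets tested in limma, 0 had an adjusted p under 0.05 (0% called), and 680 (3.65%) had an unadjusted p under 0.05.

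Replication genes differed little between the genotypes. The arrays measured whole tissue, in which fewer cycling cells and less RNA per cell cannot be told apart. All 63 probe sets passed the filter on dim signals, a mean of at least 3.21 where the lowest array value was 2.07. Passing it does not show that a gene was expressed. In limma each of the 63 had an adjusted p of 1, so 0 were called (background 0%). An unadjusted p under 0.05 was found for 3 of the 63 (4.76%), namely probe sets of Mcm10, Rfc3 and Tk1, against 3.65% of all tested probe sets. With each gene represented by its brightest probe set, the differences, mutant minus wild type, ran from -0.22 (Rfc3) to 0.19 (Pold1) on the log2 scale. A difference of at least 0.3 in size was found for 0 of 45 replication genes, against 9.97% of the 9840 genes tested. The replication genes were bright, with a median of 11.16 to 11.28 per array, against 8.22 to 8.35 over all tested probe sets. The comparisons with all tested genes or probe sets, here and below, were not matched for brightness.

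**Figure D1:**
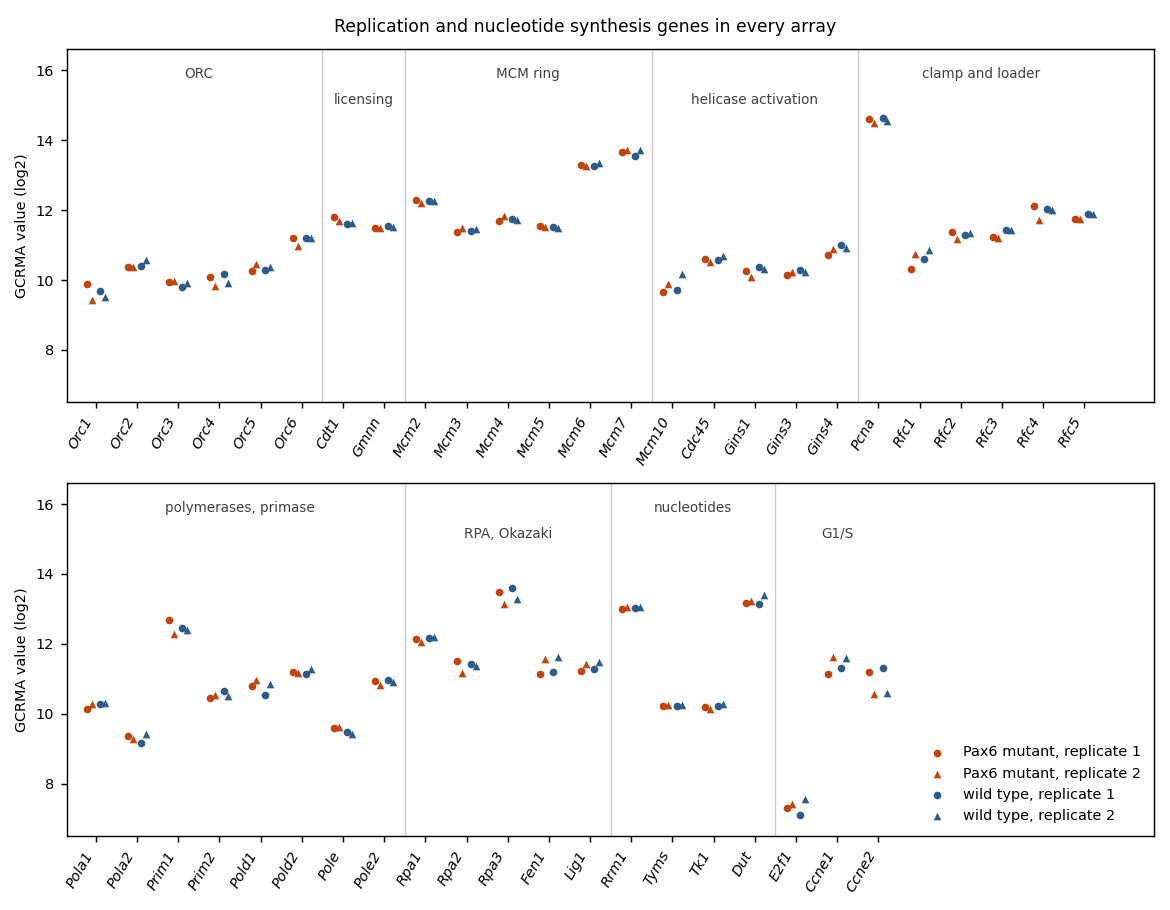
Log2 GCRMA value (vertical axis) of the brightest probe set of each of the 45 genes, ordered by role, in the 2 Pax6 mutant arrays (orange) and the 2 wild-type arrays (blue), with circles for replicate 1 and triangles for replicate 2. The symbols of a gene lie close together in most columns. For Ccne2, circles and triangles part within each genotype, while for Prim1 and Rfc4 they part mainly in the mutant arrays.

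The 95% interval of the difference shows how large a change these arrays leave possible. It lay within 0.5 on either side of 0 for 32 of 45 replication genes (71.1%), against 48.9% of all tested genes. The median standard error was 0.09 for the replication genes and 0.13 for all tested genes. For the other 13 genes the interval reached further. The widest, from -1.22 to 1.07 for Ccne2, includes a 2-fold change either way.

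**Figure D2:**
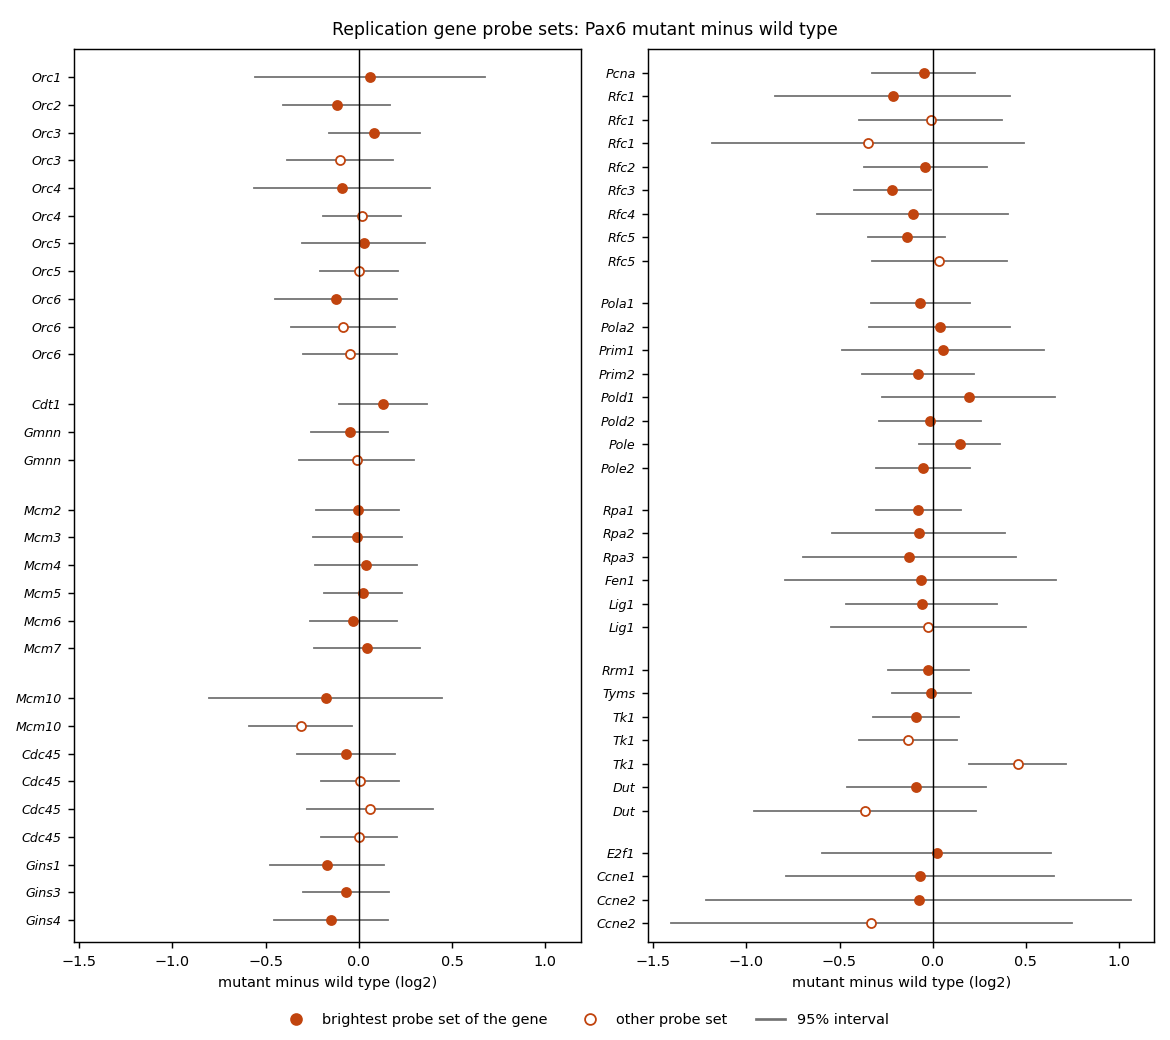
Difference between Pax6 mutant and wild-type arrays (mutant minus wild type, log2, horizontal axis) with its 95% interval for all 63 probe sets, grouped by role, where filled symbols mark the brightest probe set of a gene and open symbols the others. The interval includes 0 for all probe sets but 3, those of Mcm10, Rfc3 and Tk1.

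The ring of the replicative helicase had a median difference of 0.01, and its 6 subunits lay within 0.04 of 0 on either side. Mcm2 had 12.29 and 12.22 in the mutant arrays, against 12.25 and 12.27 in the wild-type arrays. Mcm3 had 11.38 and 11.48 in the mutant arrays, against 11.42 and 11.46 in the wild-type arrays. Mcm4 had 11.69 and 11.84 in the mutant arrays, against 11.74 and 11.72 in the wild-type arrays. For these 3 subunits the mutant values enclosed the wild-type values. Mcm5 had 11.540 and 11.528 in the mutant arrays, against 11.526 and 11.499 in the wild-type arrays. Mcm6 had 13.29 and 13.27 in the mutant arrays, against 13.26 and 13.36 in the wild-type arrays. Mcm7 had 13.66 and 13.71 in the mutant arrays, against 13.56 and 13.72 in the wild-type arrays. Mcm5 was the 1 subunit whose groups did not overlap, at a difference of 0.02 (SE 0.07). Of the 6 differences, 3 were positive and 3 negative, from -0.03 (Mcm6) to 0.04 (Mcm7). The lowest bound of any of the 6 intervals was -0.26 and the highest 0.33, which corresponds to mutant levels between 0.833 and 1.26 times the wild-type level.

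The upstream sequences of these genes are shown because the E2F binding motif is what many replication genes share by known regulation. Of the 49 genes, 40 matched the RefSeq promoter table (GRCr8), which holds 1 window for each of them except Dut. These 40 include Cdc7 and Gins2, and they do not include Cdc6, Ccne2, E2f1, Gins4, Mcm4, Orc1, Orc4, Rpa3 or Rrm2. The 250 bases before the gene start were searched on both strands for TTTCCCGC, TTTCGCGC, TTTGCCGC and TTTGGCGC. A match was found in 10 of the 40 genes (25%), against 525 of all 27457 genes in the table (1.91%), or 1.73% of all 33469 windows of that length. The 10 were Mcm2, Mcm5, Mcm6, Mcm7, Gins1, Gins3, Orc3, Orc5, Pola1 and Tyms. They held 16 matches, of which 4 pairs face each other and share 4 letters. The CCAAT box (CCAAT, both strands) was found in 20 of the 40 genes (50%), against 36.1% of all genes and 34% of all windows. For both motifs, the genes and windows compared were not matched for base composition. The stretches below come from 6 of the 10 genes and read 5′ to 3′ on the gene's strand, with E2F matches in capitals. They lie at chr4:122918095-122918128 on the minus strand (Mcm2), chr19:13488580-13488631 on the plus strand (Mcm5), chr13:42404460-42404511 on the minus strand (Mcm6) and chr12:22163203-22163250 on the minus strand (Mcm7). Those of Gins1 and Tyms lie at chr3:160184875-160184919 on the plus strand and chr9:120776093-120776140 on the minus strand.
Mcm2: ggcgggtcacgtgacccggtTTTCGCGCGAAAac
Mcm5: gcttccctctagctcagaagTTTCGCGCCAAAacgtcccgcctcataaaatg
Mcm6: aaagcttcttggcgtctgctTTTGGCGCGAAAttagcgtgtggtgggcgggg
Mcm7: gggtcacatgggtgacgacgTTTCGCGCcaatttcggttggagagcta
Gins1: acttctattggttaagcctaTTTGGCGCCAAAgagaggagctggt
Tyms: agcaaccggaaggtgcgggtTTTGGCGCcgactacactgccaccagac
A match describes these letters only, and binding was not measured.

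Upstream of the ring, the 6 ORC subunits, which mark origins, split evenly. Orc1, Orc3 and Orc5 were higher and Orc2, Orc4 and Orc6 lower, with a range from -0.12 to 0.08. Orc1, the subunit whose level follows the cell cycle in mammalian cells, had 9.88 and 9.43 in the mutant arrays, against 9.70 and 9.50 in the wild-type arrays. Its mutant values enclosed the wild-type ones, and the difference was 0.06 (SE 0.20). Orc3 had 9.93 and 9.97 in the mutant arrays, against 9.81 and 9.92 in the wild-type arrays. These groups lay just apart, at 0.08 (SE 0.08), while the second Orc3 probe set differed by -0.10 (SE 0.09).

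The licensing factor Cdt1 had 11.80 and 11.70 in the mutant arrays, against 11.60 and 11.64 in the wild-type arrays. Both mutant values lay above both wild-type values, at a difference of 0.13 (SE 0.08; 95% interval -0.11 to 0.36). Gmnn, its inhibitor, had 11.48 and 11.48 in the mutant arrays, against 11.54 and 11.52 in the wild-type arrays. Here both mutant values lay below, at -0.05 (SE 0.07; 95% interval -0.25 to 0.16). A second Gmnn probe set, with values between 3.94 and 4.13 and so near the filter limit of 3.21, differed by -0.01 (SE 0.10). Neither gene passed the test.

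Genes that activate the helicase had negative differences in all 5 tested cases, from -0.18 to -0.07, with a median of -0.15. Mcm10, which helps the loaded ring to start unwinding, had 9.66 and 9.88 in the mutant arrays, against 9.72 and 10.17 in the wild-type arrays. The mutant values overlapped the wild-type range, at a difference of -0.18 (SE 0.21). A second, dimmer Mcm10 probe set had 9.40 and 9.36 in the mutant arrays, against 9.61 and 9.76 in the wild-type arrays, without overlap. It differed by -0.31 (SE 0.09; limma unadjusted p = 0.0365, adjusted p = 1).

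The GINS complex travels with Cdc45 and the ring as part of the active helicase. Gins1 had 10.25 and 10.07 in the mutant arrays, against 10.36 and 10.31 in the wild-type arrays, a difference of -0.17 (SE 0.10). Gins4 had 10.72 and 10.89 in the mutant arrays, against 11.00 and 10.91 in the wild-type arrays, a difference of -0.15 (SE 0.10). In both genes, and in Gins3 (-0.07, SE 0.08), all mutant values lay below all wild-type values, and each 95% interval includes 0. Cdc45 was measured by 4 probe sets with differences from -0.07 to 0.06. One of these had the same value of 3.57 in all 4 arrays, so it can show no difference.

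The sliding clamp Pcna, which holds the polymerases on DNA, had 14.61 and 14.48 in the mutant arrays, against 14.64 and 14.55 in the wild-type arrays. The groups overlapped, at a difference of -0.05 (SE 0.09; 95% interval -0.32 to 0.22). The clamp loader subunits Rfc1 to Rfc5, which open the clamp and place it on primed DNA, were all lower by their brightest probe set. Rfc3 had 11.23 and 11.20 in the mutant arrays, against 11.44 and 11.43 in the wild-type arrays. Its arrays agreed closely within each genotype and did not overlap between them. The difference of -0.22 (SE 0.07; 95% interval -0.42 to -0.01) corresponds to 0.861 times the wild-type level, with a limma unadjusted p of 0.0457 and an adjusted p of 1. By its brightest probe set, Rfc3 was the 1 gene of the 45 with an unadjusted p under 0.05 (2.22%), against 3.59% of all tested genes. Split by direction, 1 replication gene was lower (background 1.81%) and 0 were higher (background 1.78%).

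Rfc1, the large subunit of the loader, had 10.31 and 10.73 in the mutant arrays, against 10.60 and 10.86 in the wild-type arrays. The groups overlapped, since the arrays of each genotype lay further apart than the means of the genotypes. The difference was -0.21 (SE 0.21), and it was -0.01 and -0.35 for the other Rfc1 probe sets. Rfc5 differed by -0.14 (SE 0.07) without overlap between the groups, but by 0.04 (SE 0.12) for its second probe set. Rfc2 and Rfc4 differed by -0.04 (SE 0.11) and -0.11 (SE 0.17).

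Polymerase and primase genes were balanced, with 4 of 8 higher, 4 lower and a median of 0.01. The catalytic subunits of the leading and lagging strand polymerases had the most positive differences. Pold1, of polymerase delta, had 10.79 and 10.97 in the mutant arrays, against 10.54 and 10.84 in the wild-type arrays. The groups overlapped, at a difference of 0.19 (SE 0.15). Pole, of polymerase epsilon, had 9.58 and 9.62 in the mutant arrays, against 9.48 and 9.43 in the wild-type arrays. Both mutant values lay above, at a difference of 0.14 (SE 0.07; 95% interval -0.07 to 0.36). Their partners Pold2 (-0.02) and Pole2 (-0.05), the polymerase alpha genes Pola1 (-0.07) and Pola2 (0.04) and the primase genes Prim1 (0.06) and Prim2 (-0.08) lay nearer to 0.

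The single-strand binding subunits Rpa1, Rpa2 and Rpa3, the flap nuclease Fen1 and the ligase Lig1 complete the lagging strand. All 5 had small negative differences, from -0.13 to -0.06, and the groups did not overlap for Rpa1 alone. Fen1 had 11.13 and 11.56 in the mutant arrays, against 11.21 and 11.61 in the wild-type arrays. Each genotype held a lower and a higher array, and the distance between them was several times the difference of -0.06 (SE 0.24).

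Of the nucleotide synthesis genes, 4 were measured, and all 4 differences were negative but at most 0.09 in size. Tyms, the thymidylate synthase, had 10.22 and 10.25 in the mutant arrays, against 10.23 and 10.26 in the wild-type arrays. Rrm1, the large subunit of ribonucleotide reductase, had 13.00 and 13.05 in the mutant arrays, against 13.03 and 13.06 in the wild-type arrays. In these genes the genotypes could hardly be told apart, at -0.01 (SE 0.07) and -0.02 (SE 0.07). Tk1, the thymidine kinase of S phase cells, had 10.20 and 10.13 in the mutant arrays, against 10.23 and 10.28 in the wild-type arrays. Its groups did not overlap, at -0.09 (SE 0.08), and its next probe set differed by -0.13 (SE 0.09).

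The dimmest Tk1 probe set, singled out after its values were seen, went the other way. It had 7.98 and 7.97 in the mutant arrays, against 7.45 and 7.58 in the wild-type arrays, without overlap. This difference of 0.45 (SE 0.08; 95% interval 0.20 to 0.71) had a limma unadjusted p of 0.0103 and an adjusted p of 1. Tk1 therefore has probe sets that disagree in direction, as do 5 of the 13 replication genes with several probe sets, Tk1 included. A dimmer probe set of Dut, the dUTPase that keeps uracil out of DNA, differed by -0.36 (SE 0.20), against -0.09 (SE 0.12) for the brighter one. Counted over all 63 probe sets, 5 (7.94%) differed by at least 0.3 in size, against 12.6% of all tested probe sets, and none of the 5 was the brightest of its gene.

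E2f1 and the E-type cyclins drive entry into S phase, and none of these 3 genes had a 95% interval within 0.5 on either side of 0. E2f1 had 7.30 and 7.41 in the mutant arrays, against 7.10 and 7.57 in the wild-type arrays, with the mutant values inside the wild-type range. Ccne1 had 11.13 and 11.63 in the mutant arrays, against 11.30 and 11.60 in the wild-type arrays. Ccne2 had 11.18 and 10.57 in the mutant arrays, against 11.31 and 10.60 in the wild-type arrays. In both cyclin genes each genotype had a high and a low array. The differences were 0.02 (SE 0.20), -0.07 (SE 0.24) and -0.08 (SE 0.37) for E2f1, Ccne1 and Ccne2, in that order. A second, dimmer Ccne2 probe set had 5.46 and 6.12 in the mutant arrays, against 6.41 and 5.83 in the wild-type arrays, with overlap and a difference of -0.33 (SE 0.35).

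Taken as a list, 33 of the 45 genes were lower in the mutant (73.3%), against 49.4% of all tested genes, with a median difference of -0.06 (0.960 times the wild-type level), against 0.00 over all tested genes. The groups did not overlap for 10 lower genes (background 12.1%) and 4 higher genes (background 12.2%). In either direction this was 31.1% of the 45 genes, against 24.3% of all tested genes. Per array, the median over the 45 genes was 11.18 and 11.16 in the mutant arrays, against 11.21 and 11.28 in the wild-type arrays. The median difference moved with single arrays, to -0.035 without mutant replicate 2 and to -0.011 without wild-type replicate 2. Set against each other by replicate number, 27 of 45 genes were lower in mutant than in wild-type replicate 1 (median -0.03). Between the arrays numbered 2, 35 of 45 were lower in the mutant (median -0.07). Of all 9840 tested genes, 4744 and 4720 were lower in these comparisons, in that order, each with a median of 0.00.

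Marker levels of other cell types also differed between the same arrays. Erythroid markers were higher in the mutant in 9 of 10 tested cases, with a median of 0.32. Their summed linear level was 87697 to 87798 in the mutant arrays, against 76681 to 78342 in the wild-type arrays. The brightest markers weigh most in such a sum, here Hbe1 and Hbz. Of the 13 endothelial markers 12 had a positive difference (median 0.18). Their summed level was 4536 to 5242 in the mutant arrays, against 4119 to 4147 in the wild-type arrays. Their median level overlapped, at 7.64 and 7.69 in the mutant arrays, against 7.54 and 7.71 in the wild-type arrays. Of the 10 neuroepithelial markers 8 had a positive difference (median 0.05). Their summed level was 51969 to 52770 in the mutant arrays, against 47764 to 47802 in the wild-type arrays. Their median level overlapped too, at 11.04 and 11.04 in the mutant arrays, against 10.90 and 11.07 in the wild-type arrays. Markers of postmitotic neurons, which no longer replicate DNA, included 4 higher and 5 lower among 10 tested (median -0.01), while Nefl and Snap25 were too dim to test. Of the remaining lists, surface ectoderm had 3 of 6 markers higher (median -0.25) and mesenchyme and neural crest 5 of 11 (median -0.07). The summed mesenchyme and neural crest level was 7679 and 8923 in the mutant arrays, against 9143 and 9024 in the wild-type arrays. Their median level went the other way, at 8.48 and 8.48 in the mutant arrays, against 8.10 and 7.97 in the wild-type arrays. Summed levels of the neuron and surface ectoderm markers overlapped between the genotypes. No marker in these lists was called. Their part in the lean of the replication genes was not tested.

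**Figure D3:**
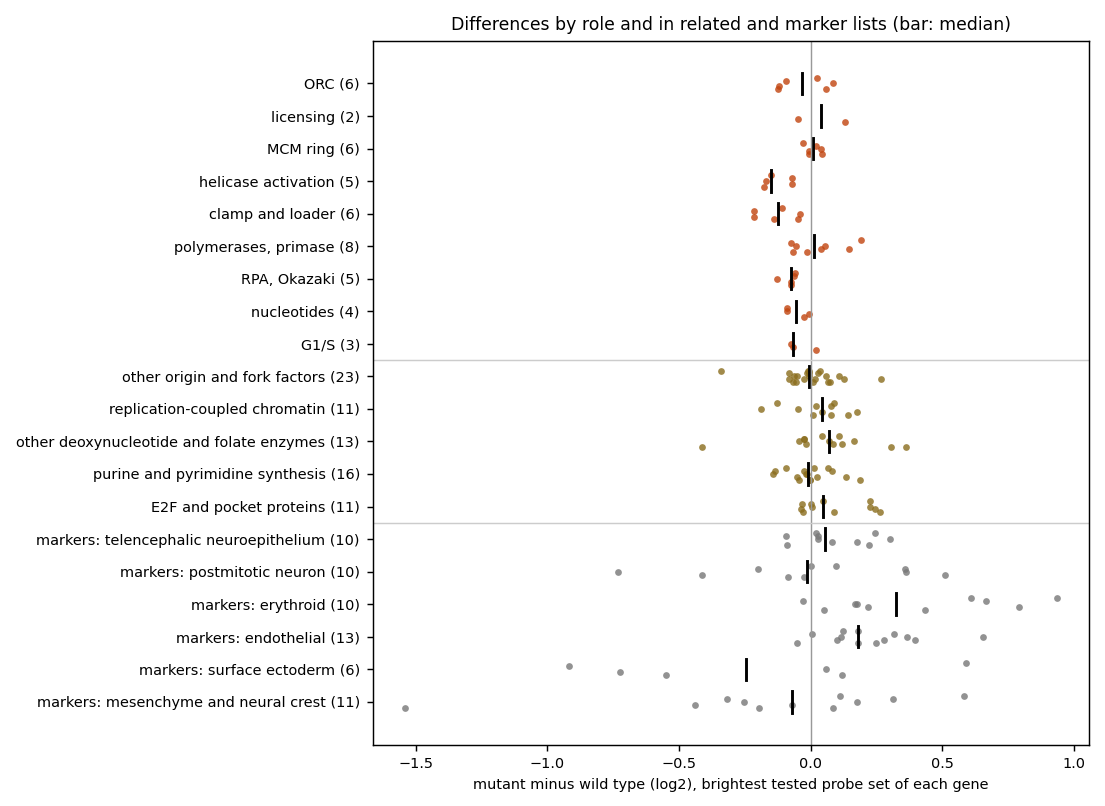
Difference between Pax6 mutant and wild-type arrays (mutant minus wild type, log2, horizontal axis) for each tested gene, by role (orange), in related pathway lists (brown) and in marker lists (grey), with the number of genes in brackets and a bar at each median. The medians by role lie between -0.15 and 0.04, and the erythroid markers have their median at 0.32.

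Other genes of replication and nucleotide supply lay on both sides of 0. Of 74 tested genes in 5 lists, 39 were higher and 34 lower, with a median of 0.01, and limma called 0 at an adjusted p of 0.05. An unadjusted p under 0.05 was found for 2 of them (2.7%), against 3.59% of all tested genes, and the groups did not overlap for 16 (21.6%), against 24.3%.

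Among 23 other origin and fork factors, 10 were higher and 13 lower (median -0.01). Top2a, the topoisomerase that untangles replicated chromosomes, had 12.85 and 12.65 in the mutant arrays, against 13.11 and 13.06 in the wild-type arrays. The groups did not overlap, at a difference of -0.34 (SE 0.11; limma unadjusted p = 0.0440, adjusted p = 1). Wdhd1, which couples polymerase alpha to the helicase, differed by -0.08 (SE 0.08). At the other end, Mcm9, an Mcm relative outside the ring, differed by 0.27 (SE 0.23) and the checkpoint mediator Clspn by 0.13 (SE 0.21).

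Among 11 genes of replication-coupled chromatin, 8 were higher and 3 lower (median 0.04). The chromatin assembly factor subunit Chaf1b (0.18, SE 0.07) and the histone mRNA binding protein Slbp (0.14, SE 0.97) had the most positive values. Supt16h of the histone chaperone FACT (-0.19, SE 0.15) and the histone chaperone Nasp (-0.13, SE 0.14) had the most negative ones. The E2F and pocket protein genes were higher in 7 and lower in 3 of 11 cases (median 0.05). Rbl2 (0.26, SE 0.22) and the repressor E2f4 (0.24, SE 0.10) stood at the upper end, and Tfdp1 (-0.04, SE 0.20), the partner of E2F proteins, and E2f6 (-0.03, SE 0.18) at the lower. The Rb1 probe set had the same value of 7.43 in all 4 arrays and can show no difference.

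Other deoxynucleotide and folate enzymes were higher in 8 and lower in 5 of 13 cases (median 0.07). Tk2, the mitochondrial thymidine kinase, had 6.87 and 6.82 in the mutant arrays, against 7.31 and 7.20 in the wild-type arrays. Its groups did not overlap, at a difference of -0.41 (SE 0.08; limma unadjusted p = 0.0120, adjusted p = 1). Dtymk, the thymidylate kinase, differed by -0.04 (SE 0.10), the dNTP-degrading Samhd1 by 0.36 (SE 0.38) and the deoxycytidine kinase Dck by 0.31 (SE 0.15). In purine and pyrimidine synthesis, 6 of 16 genes were higher and 10 lower (median -0.01). Ppat (-0.14, SE 0.08) and Gart (-0.14, SE 0.09) of the purine pathway lay lowest, and Atic (0.13, SE 0.15) of that pathway and Cad (0.19, SE 0.12) of the pyrimidine pathway highest.

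Arrays of the same genotype differed more than the genotypes in many replication genes. In 22 of 45 genes (48.9%) the gap between the arrays of each genotype exceeded the difference between the genotypes, against 47.5% of all tested genes. The gap was at least 0.2 in both genotypes for 7 of 45 genes (15.6%), against 23% of all tested genes. It ran the same way in mutant and wild type in all 7, as it did in 87.4% of such cases among all tested genes. Replicate 2 minus replicate 1 was -0.61 in the mutant and -0.71 in wild type for the brightest Ccne2 probe set, but 0.66 in the mutant and -0.58 in wild type for the dimmer one. The gap was -0.33 in the mutant and -0.30 in wild type for Rpa3, and -0.26 in the mutant and -0.24 in wild type for Orc4. Positive gaps were seen for Fen1 (0.42 in the mutant and 0.40 in wild type), Ccne1 (0.50 in the mutant and 0.29 in wild type), Rfc1 (0.43 in the mutant and 0.26 in wild type) and Mcm10 (0.21 in the mutant and 0.45 in wild type). The brightest probe sets of the 2 E-type cyclin genes thus had gaps of opposite sign. Over all 45 genes the gap had the same sign in both genotypes for 30 (66.7%), against 66.2% of all tested genes. The labels do not say what same-numbered arrays share.

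**Figure D4:**
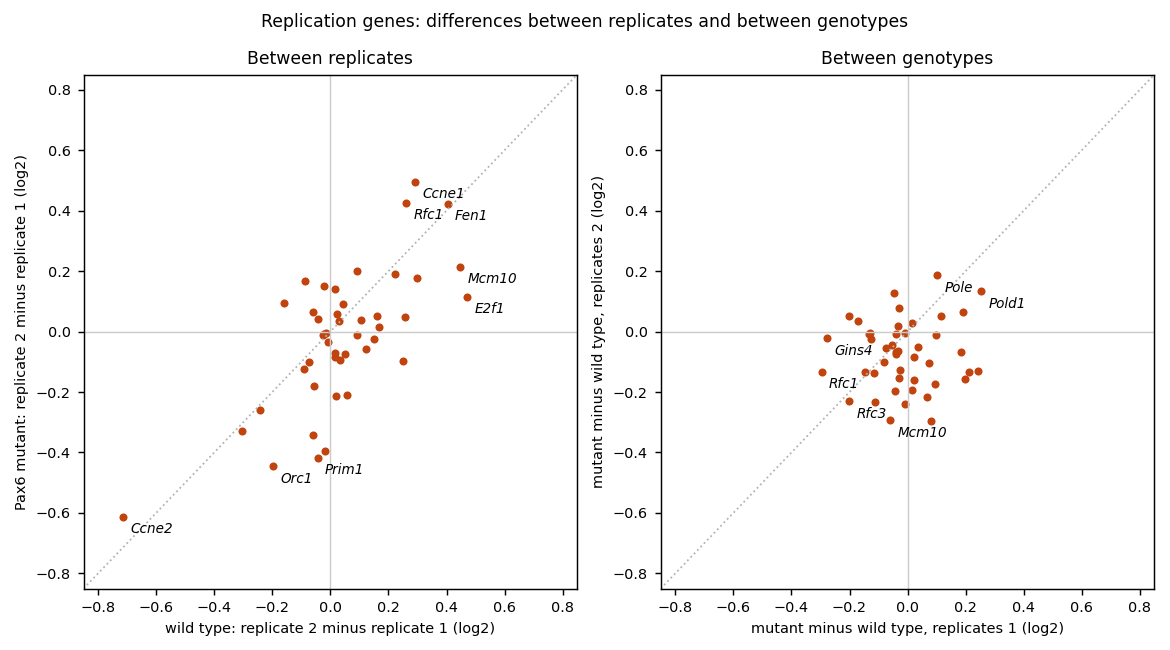
Left, replicate 2 minus replicate 1 in Pax6 mutant (vertical axis) and wild type (horizontal axis) for the 45 genes, on the log2 scale, and right, mutant minus wild type between the arrays numbered 2 (vertical axis) and between those numbered 1 (horizontal axis), with the dotted line marking equal values. Ccne2 lies at -0.61 and -0.71 on the left, beyond any gene on the right.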

How the data were processed

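The authors deposited 1 log2 value per probe set and array, made with GCRMA per the submitters' processing notes (version not given in the sources used here). The scale is inferred from the range, whose shared lowest value is 2.07. Between 5333 and 5462 probe sets per array lay at that value. Arrays give no read depth, and their number limits the precision. From these values, 57 control probe sets were left out, and probe sets with a mean over the 4 arrays under the 40th percentile (3.21) were not tested. Genotype was the one term of the fit in limma (version 3.58.1, R 4.3.3), with Benjamini-Hochberg adjustment over 18625 probe sets and a threshold of 0.05. Gene symbols came from the platform annotation. An exact permutation test of these arrays cannot reach the threshold and was not used.

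Genes stand by their tested probe set with the highest mean. Values in each array are given for members with an unadjusted p under 0.05, or without overlap at a difference of 0.3 or more, for the 5 highest and 5 lowest differences, and for Pcna, Mcm2 to Mcm7, Cdc6 (no probe set used), Cdt1 and Gmnn. Other pathway lists give their 2 highest and 2 lowest genes. A few further genes (Pax6, Fabp7, Sox2, Lhx2, Hes5, Sox1, Six3, Rfc5, Fen1, Tyms, Rrm1, Tk1, Dut, E2f1, Ccne1, Ccne2, Rb1) were added as examples. Members, lists and tests were chosen with earlier results of these data known. The fit was also run on simulated arrays with the same spread for every probe set. The real probe sets vary in spread, so that run does not show how often real differences are called.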

Additional observations from a re-analysis of the deposited data

How the results depend on the processing

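At an adjusted p of 0.05 in limma, 0 replication probe sets were called under the 12 alternatives, but so few calls are made with these arrays that this says little about stability. The alternatives changed the filter, normalization, pseudocount, variance prior, block or arrays. Against 0 of all probe sets in the reported fit, 2 passed after median centring, 2 after quantile normalization, 1 with the stricter filter and 2 without 249 zero-variance probe sets, a choice made after seeing the data. Leaving out 1 array called 0. Replication probe sets with an unadjusted p under 0.05 numbered 3 in the reported fit, 6 with no filter and 1 each after median centring, quantile normalization and leaving out zero-variance probe sets. With 1 array left out they numbered 0 to 3, 0 without mutant replicate 2 and 1 without mutant replicate 1 or wild-type replicate 2, where the lone array is assumed to vary like the others. The median difference of replication genes, -0.06, ran from -0.045 to -0.011 with 1 array left out, nearest to 0 without wild-type replicate 2, and from -0.06 to -0.04 otherwise.

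Of the 18 genes chosen by the naming rule, 8 changed sign in at least 1 alternative. After quantile normalization Mcm2 was at 0.0046 and Mcm3 at 0.0063. With 1 array left out the differences ran from -0.042 to 0.029 for Mcm2, -0.054 to 0.038 for Mcm3, -0.036 to 0.11 for Mcm4, -0.077 to 0.016 for Mcm6, -0.036 to 0.12 for Mcm7, -0.40 to 0.046 for Mcm10, -0.17 to 0.28 for Orc1 and -0.11 to 0.012 for Pcna. Among genes that kept their sign, those of Rfc1 ran from -0.43 without mutant replicate 2 to -0.002 without mutant replicate 1, Pold1 from 0.04 without wild-type replicate 1 to 0.34 without wild-type replicate 2, Gins1 from -0.26 to -0.08, Gins4 from -0.23 to -0.07 and Rfc3 from -0.23 to -0.20. The cause was not tested.

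Same-numbered arrays are not said to share a litter or day. With the replicate number as a block, 0 probe sets passed and 2 replication probe sets had an unadjusted p under 0.05. The gaps between replicates correlated between mutant and wild type at r = 0.43 over 18625 probe sets and 0.71 over the 45 replication genes, which are not independent replicates.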

Other observations

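Genes of the 5 other pathway lists also had gaps between the arrays of a genotype, in both directions. The gap was at least 0.2 in both genotypes for 20 of 74 genes (27%), against 23% of all tested genes, and replicate 2 was higher in both genotypes for 11 of them, lower in both for 7, and higher in one and lower in the other for 2. Slbp, which binds the stem-loop of histone mRNA, had 11.04 and 9.01 in the mutant arrays, against 10.60 and 9.17 in the wild-type arrays. Replicate 2 minus replicate 1 was thus -2.03 in the mutant and -1.43 in wild type. Negative gaps were also seen for the pocket protein gene Rbl1 (-1.06 in the mutant and -0.50 in wild type), the chromatin remodeller Hells (-0.80 in the mutant and -0.45 in wild type) and the cyclin Ccna2 (-0.45 in the mutant and -0.54 in wild type). Positive gaps were seen for Samhd1 (0.70 in the mutant and 0.67 in wild type), the clamp loader genes Chtf8 (0.57 in the mutant and 0.41 in wild type) and Chtf18 (0.37 in the mutant and 0.32 in wild type), and E2f2 (0.29 in the mutant and 0.32 in wild type). The named genes were singled out after their values were seen.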
